A study of Mus musculus with 18 samples.

Results

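The genes that encode the proteins of the cytosolic ribosome were examined in RNA-seq of postnatal day 0 (P0) mouse forebrain. Members were chosen by gene name alone, as names of the pattern Rpl or Rps followed by a number, with Rpsa, Rplp0, Rplp1 and Rplp2, and names marked -ps (pseudogene) were left out. This gave 89 names, of which 84 were present in all 4 expression tables of the series. The hippocampal and neurosphere tables each held 84 members among 23138 and 23398 named genes, and the cortical and Rnf2 tables each held 89 among 54429. By role, 43 members encode proteins of the large subunit, 31 encode proteins of the small subunit, 3 encode the stalk (P) proteins, and the rest, 7 in the first pair of tables and 12 in the second, carry names of paralogs or of copies that the annotation counts as pseudogenes.

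Control and conditional knockout (cKO) mice were compared in 4 settings. Kdm2b was studied in hippocampi (3 control and 3 cKO libraries), in neurospheres grown from hippocampal neural progenitor cells (2 and 2) and in cortices (2 and 2), and Rnf2 in hippocampi (2 and 2). The Kdm2b cKO is labelled Kdm2bEmx1-∆CxxC, with controls labelled Kdm2bfl/+ or Kdm2bfl/fl, and the Rnf2 cKO is labelled Rnf2Emx1-cKO, with controls labelled Rnf2fl/+ or Rnf2fl/fl, so controls carry floxed alleles and the labels do not say how many. Emx1-Cre recombines in progenitors of the dorsal telencephalon and their progeny, so interneurons, microglia, vessels and meninges in the dissected tissue keep intact alleles. Neurosphere cells were kept in medium with FGF2 and EGF. No label says whether libraries of a group came from different animals, so p values measure the spread between these libraries, which may be technical.

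Each cytosolic ribosome holds close to 1 copy of each ribosomal protein, and the genes for these proteins are among the most highly transcribed in growing cells. Their mRNAs typically begin with a 5′ terminal oligopyrimidine (TOP) tract, through which mTOR signaling controls their translation, and their promoters are rich in CG dinucleotides. KDM2B binds unmethylated CG-rich DNA through its CxxC domain and recruits a variant Polycomb repressive complex 1, in which RNF2 (RING1B) is the catalytic subunit that ubiquitinates histone H2A. Ribosomal protein genes have left many processed pseudogenes in the mouse genome, nearly identical to their mRNAs, so reads can be assigned to either.

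The sequence around the start site was read for the 11 members that passed the call thresholds described below and had a RefSeq promoter entry, in order to show the features that ribosomal protein genes share. RefSeq windows of 30 bases (GRCm38.p6), from 10 bases before the annotated start to 20 bases from it, are given 5′ to 3′ on the strand of the gene, with each CTTTC in capitals. The first 5 hold the motif in a pyrimidine-rich stretch, and the other 6 do not hold it within these 30 bases.
Rpl35 (chr2:39005112-39005141, minus strand): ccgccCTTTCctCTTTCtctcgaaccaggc
Rpl7a (chr2:26910797-26910826, plus strand): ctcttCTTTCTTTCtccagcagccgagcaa
Rpl28 (chr7:4792955-4792984, plus strand): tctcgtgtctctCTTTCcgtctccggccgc
Rpl27a (chr7:109519185-109519214, plus strand): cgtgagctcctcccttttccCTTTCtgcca
Rpl12 (chr2:32961702-32961731, plus strand): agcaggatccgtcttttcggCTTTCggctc
Rps27l (chr9:66946076-66946105, plus strand): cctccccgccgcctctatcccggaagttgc
Rpsa (chr9:120127756-120127785, plus strand): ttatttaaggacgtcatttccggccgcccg
Rps2 (chr17:24720053-24720082, plus strand): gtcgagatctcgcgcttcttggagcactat
Rpl11 (chr4:136053374-136053403, minus strand): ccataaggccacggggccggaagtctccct
Rpl36a (chrX:134585644-134585673, plus strand): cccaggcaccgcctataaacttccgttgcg
Rps28 (chr17:33824543-33824572, minus strand): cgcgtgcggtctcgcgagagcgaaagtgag

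Of 64 members with a RefSeq promoter entry, 29 (45.3%) held CTTTC on the gene strand from 30 bases before to 50 bases after the start, against 10.1% of all 27025 promoters. On the opposite strand the shares were 12.5% and 9.71%. The longer CTCTTTC was found in 17.2% of members and 1.05% of all promoters. CTTCC on the gene strand was found in the same window in 40.6% and 16.4%, and it overlaps the complement of CCGGAAG, the core that ETS factors read, which was present on either strand of the 300 bases in 39.1% and 9.12%. The median member promoter held 21 CG dinucleotides in 300 bases, against 7 over all promoters, and 57.8% of members held at least 20, against 26.8%. These are matches of letters and not tested sites. In Rnf2 hippocampi Rpl35, Rpl28 and Rpl27a, called higher, and Rpl7a, called lower, held CTTTC in the windows shown, and Rpl11, Rpl36a and Rps28, called higher, did not. From 30 bases before to 50 bases after the start, however, Rpl36a held both CTTTC and CTCTTTC, and Rpsa held CTTTC.

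Ribosomal protein genes made up a large part of the transcriptome in each table. Their summed FPKM (fragments scaled to transcript length and library size, as deposited) was 10.6% to 12.3% of the FPKM of all named genes in Kdm2b hippocampi, 12.1% to 18.6% in neurospheres, 6.77% to 8.62% in cortices and 4.30% to 5.21% in Rnf2 hippocampi. FPKM divides by length and many of these mRNAs are short, so these are shares of length-scaled values and not of reads. They are not exact shares of molecules either. In the Rnf2 table the gene length was 0.584 (Rpl17) to 6.79 (Rpl35a) times that of the annotated mRNA. In reads, which could be recovered for the cortical and Rnf2 tables, they took 3.01% to 3.99% and 1.94% to 2.46%.

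Rplp1, which with Rplp2 and Rplp0 forms the stalk that binds elongation factors, had a control level of 1209 ± 66.8 FPKM (SD, n = 3) in Kdm2b hippocampi, 1991 ± 485 (n = 2) in neurospheres, 1117 ± 243 (n = 2) in cortices and 889 ± 262 (n = 2) in Rnf2 hippocampi, among the 4 highest members each time. The highest members of Kdm2b hippocampi were Rpl38 at 1638 ± 123, Rpl41 at 1236 ± 96.7 and Rps26 at 1212 ± 146, and the last 2 of these did not differ beyond their spread from each other or from Rplp1. In neurospheres the order was Rps26 (2222 ± 81.8), Rpl38 (2041 ± 466), Rps27 (1991 ± 77.3), Rplp1 and Rps12 (1675 ± 34.3), and the libraries of Rplp1 overlapped with those of the other 4. The libraries of Rpl38 spread over those of Rps26 and Rps27 and lay above those of Rps12. In cortices Rplp1 was followed by Rplp0 (799 ± 14.4), Rps3a1 (765 ± 54.4), Rps15 (720 ± 102) and Rpl36 (654 ± 300), and in Rnf2 hippocampi by Rplp0 (621 ± 53.8), Rps3a1 (581 ± 75.9), Rpl4 (427 ± 19.3) and Rps4x (404 ± 21.2). The libraries of Rplp0 and Rps3a1 overlapped in both tables, as did those of Rpl4 and Rps4x.

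At the other end, Rpl7l1 (19.7 ± 0.629), Rps15a (52.5 ± 7.22) and Rps4l (65.2 ± 1.95) had the lowest FPKM among members tested in Kdm2b hippocampi, and the same genes did so in neurospheres, where Rps15a was at 66.6 ± 5.28 and Rps4l, the lowest, at 10.9 ± 4.26. The lowest were Rps3a3 (3.29 ± 0.454), Rpl24 (1.84 ± 0.270) and Rpl32l (0.575 ± 0.313) in cortices, and Rps3a2 (3.82 ± 0.690), Rps3a3 (2.80 ± 0.156) and Rps10 (0.751 ± 0.0394) in Rnf2 hippocampi. Rps10 and Rpl24 encode core proteins of the ribosome. The paralogs Rpl10l, known from testis, and Rps12l1 were listed at 0 in each library of each table that held them, and Rpl39l and Rpl3l, a paralog of muscle, did not exceed 0.402 and 0.156 FPKM.

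Hippocampi of the same age were measured in both the Kdm2b and the Rnf2 table, which were normalized separately, so their levels were set side by side without a test. Paralogs were left out here. Of 77 other members with a value in both and annotated transcripts, the median control level was 3.47-fold higher in the Kdm2b table. Of these, 10 members differed by over 10-fold. Rps10 was at 439 ± 22.1 FPKM in the Kdm2b table and at 0.751 ± 0.0394 in the Rnf2 table, Rpl13a, read from a shared entry in the Kdm2b table, at 496 ± 12.7 and 5.32 ± 0.0809, and Rpl24 at 384 ± 21.6 and 7.34 ± 1.73. These 3, at ratios of 585, 93.2 and 52.4, were the members with over 50% of their mRNA bases covered on the same strand by another annotated gene (RPS10-NUDT3, Gm45713 and Gm28037, each at 0 or 1 read). The other 74 had a median ratio of 3.38 and a highest of 21.0, for Rpl35a. In the table of Rnf2 hippocampi, 98.2% of the reads on Rps10 and its named pseudogenes lay on the pseudogenes. The part of gene models and counting in these ratios was not tested.

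**Figure D1:**
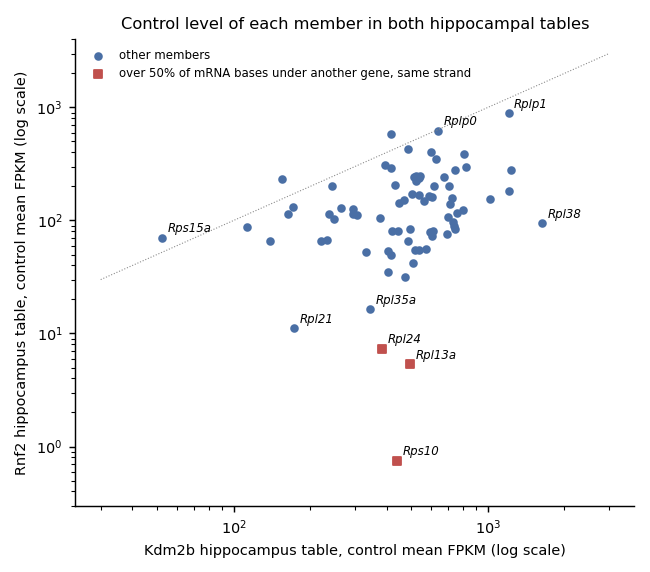
Mean control FPKM of each of 77 members in the Kdm2b hippocampal table (x axis, log scale, n = 3) and the Rnf2 hippocampal table (y axis, log scale, n = 2), with a dotted line of equal values. Paralogs are not shown. Most points lie below the line, Rplp0 (637 and 621) lies on it, and the 3 red squares, Rps10, Rpl13a and Rpl24, lie lowest.

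The question for each comparison was whether loss of the KDM2B CxxC domain or of RNF2 went with a different level of ribosomal protein mRNAs. The limma test ran on log2(FPKM + 1) for every gene that averaged 0.5 FPKM or more, and near 1 FPKM the added 1 makes fold changes smaller than those of the levels. Calls needed an unadjusted p under 0.05 and a difference of over 0.4 on the log2 scale in either direction, and adjusted p values (Benjamini-Hochberg) were taken over all genes of the table. At 2 or 3 libraries a group, only large or very even differences pass. After the filter 81, 81, 85 and 84 members were tested in Kdm2b hippocampi, neurospheres, cortices and Rnf2 hippocampi.

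Most members had small positive differences in the Kdm2b cKO and few were called. In Kdm2b hippocampi 72 of 81 log2 fold changes were above 0, with a median of 0.093 (all genes 0.008), and 1 member was called higher and 0 lower, where 3.89% and 2.25% of all genes were called. In neurospheres 75 of 81 were above 0, with a median of 0.21 (all genes -0.011), and 4 were called higher and 1 lower, against 11.4% and 13.2% of all genes. With neurosphere libraries scaled to the same FPKM total, the background was 10.3% and 6.78% and the members' counts stayed at 4 and 1. With the same scaling after the rDNA-like entry Mir6236 was left out, a setting chosen after seeing the data, the background was 9.96% and 15.9%, the members' counts were 3 and 1 and their median was 0.157 (all genes -0.061). In cortices 79 of 85 were above 0, with a median of 0.22 (all genes -0.0053), and 3 were called higher and 0 lower, against 4.73% and 2.28%. In Rnf2 hippocampi 55 of 84 were above 0, with a median of 0.080 (all genes -0.00024), and 7 (8.33%) were called higher and 1 lower, against 2.86% and 1.85%. The shares of members called were thus near or under the background in the Kdm2b comparisons, and the share called higher lay above it in Rnf2 hippocampi.

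With the p threshold alone, 13 members were higher and 1 lower in Kdm2b hippocampi, 6 and 1 in neurospheres, 3 and 2 in cortices and 14 and 1 in Rnf2 hippocampi. Over all genes the counts were 1537 and 1553 of 13446, 2230 and 2439 of 12227, 1212 and 801 of 15691, and 692 and 429 of 15764. In either direction these were 23.0%, 38.2%, 12.8% and 7.11% of all genes. The calls that also had an adjusted p under 0.05 in limma were Rpl30 in Kdm2b hippocampi and Rps27l and Rps4l in neurospheres. Libraries of the 2 groups did not overlap, with cKO above control, for 20 members (24.7%) in Kdm2b hippocampi, where 14.9% of all genes did so, 34 (42.0%) in neurospheres against 32.1%, 34 (40.0%) in cortices against 22% and 26 (31.0%) in Rnf2 hippocampi against 19.5%. With cKO below control they did not overlap for 1 member against 14.3% of all genes, 2 against 34.4%, 2 against 22.8% and 3 against 18.7%, so the members' shares lay above the background in the upward direction and below it in the downward direction in each table.

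**Figure D2:**
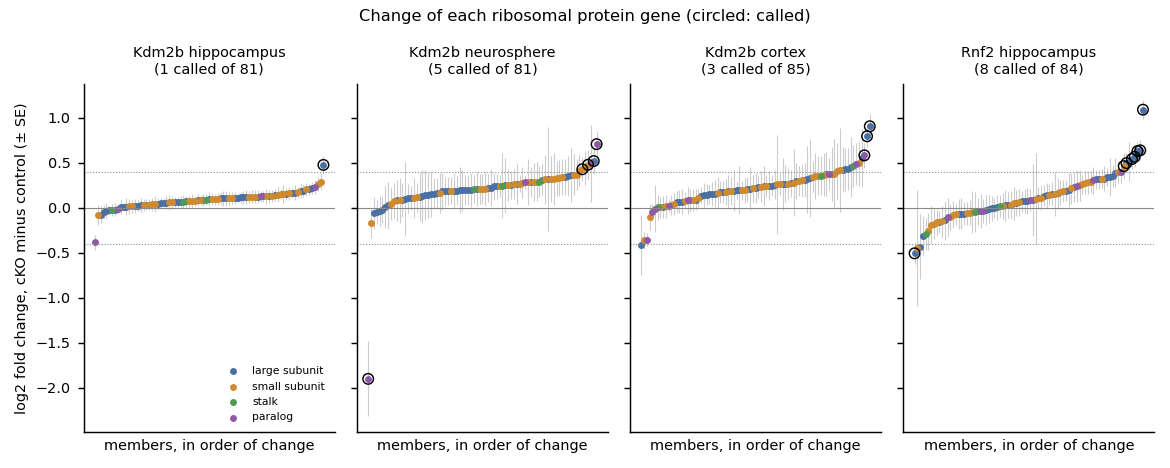
Log2 fold change of each member tested (cKO minus control, y axis, with its SE as a bar), ordered from lowest to highest within each comparison and coloured by role. Circles mark the 1, 5, 3 and 8 members called, dotted lines the fold threshold of 0.4, and the lowest point of the neurosphere panel is Rps4l at -1.90.

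The shift was spread over the subunits. In Kdm2b hippocampi 38 of 43 large subunit genes, 30 of 31 small subunit genes and 2 of 3 stalk genes were above 0, with medians of 0.087, 0.098 and 0.069. In neurospheres 39, 30 and 3 were above 0, with medians of 0.19, 0.28 and 0.25, and in cortices 42, 29 and 3, with medians of 0.22, 0.24 and 0.36. In Rnf2 hippocampi 31 large and 19 small subunit genes were above 0 (medians 0.11 and 0.062), and of the stalk genes only Rplp0 was (0.02, against -0.05 for Rplp1 and -0.29 for Rplp2). Members of the same library share its depth and preparation, so they are not independent points.

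The shift differed between libraries of the same group. Relative to the mean of the controls, the median member stood at 0.034, -0.093 and 0.052 (log2) in the 3 hippocampal controls and at 0.162, 0.076 and 0.026 in the 3 Kdm2b cKO libraries, so cKO replicate 3 lay among the controls. In neurospheres the medians were 0.046 and -0.046 in the controls and 0.040 and 0.399 in the cKO, so cKO replicate 2 alone stood apart. Without cKO replicate 2 the median log2 fold change was 0.040, and without cKO replicate 1 it was 0.399. Control replicate 1 of the neurospheres also differed from the rest, as it held 29.3% of its FPKM in entries with no gene name, against 0.876% to 1.95% in the other libraries. On a list of RNA from rDNA and mitochondria, of which this table held 2 genes, the controls summed to 308 and 136852 FPKM, the higher in replicate 1, and the cKO to 361 and 7369. Without the rDNA-like entry Mir6236 the members' share of named FPKM in that control went from 12.1% to 15.7%, beside 15.0% in the other control and 15.9% and 18.9% in the cKO. Without control replicate 1 the median was 0.267. In cortices the controls stood at 0.176 and -0.176 and the cKO at 0.192 and 0.256. Leaving out control replicate 2 gave a median of 0.047, and leaving out control replicate 1 gave 0.375. In Rnf2 hippocampi the controls (0.141 and -0.141) spanned both cKO libraries (0.054 and 0.128). The median log2 fold change turned to -0.066 without control replicate 2 and was 0.239 without control replicate 1.

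**Figure D3:**
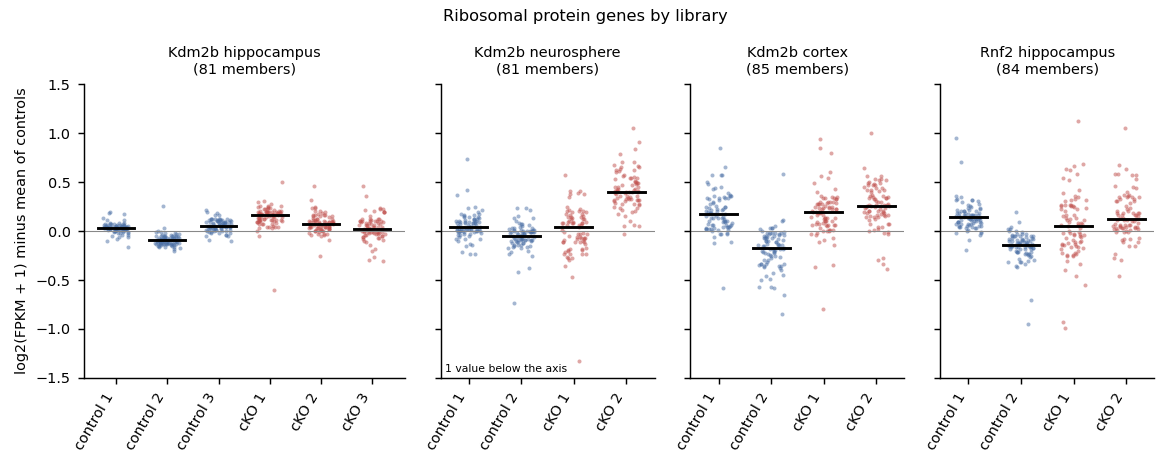
log2(FPKM + 1) of each member minus the mean of the controls (y axis), for each library (x axis, controls blue, cKO red), with the median as a black bar. The bar of neurosphere cKO replicate 2 lies at 0.399 and that of cKO replicate 1 at 0.040, and both cKO bars of the Rnf2 panel lie between its control bars.

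With paralogs left out, the spread between controls was wider for short genes than for longer ones. In cortical controls the log2 range between the 2 libraries had a median of 0.698 over 24 members with a coding sequence under 400 bases and of 0.255 over 53 longer ones, and the widest was that of Rps29. In Rnf2 controls the medians were 0.367 and 0.251, in the 3 Kdm2b hippocampal controls 0.230 and 0.155, and in neurosphere controls 0.213 and 0.138. In the cKO libraries the short members spread more in Kdm2b hippocampi (0.187 and 0.121) and Rnf2 hippocampi (0.114 and 0.0881), and both sets spread alike in cortices (0.119 and 0.122) and neurospheres (0.356 and 0.358). The median log2 fold change was 0.273 for the short and 0.194 for the long members in cortices, 0.231 and 0.206 in neurospheres and 0.064 and 0.095 in Kdm2b hippocampi.

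Markers of cell types moved with genotype in some tables, and since these are bulk samples, fewer cells of a type and less RNA per cell cannot be told apart. Defining genes of the labelled tissues were present, as the summed FPKM of 9 hippocampal markers was 560 to 601 in Kdm2b controls and 441 to 496 in Rnf2 controls, and that of 8 neocortical markers was 755 to 850 in cortical controls. In cortices all 8 meningeal markers were called higher (summed FPKM 1.53 to 2.49 in controls and 24.3 to 39.9 in cKO, none at 0), with 4 of 6 blood, 3 of 8 microglial and 3 of 8 vessel markers tested. In Rnf2 hippocampi 5 of 8 meningeal markers were called lower (40.9 to 41.2 and 19.3 to 27.8). Of 9 genes of the list of RNA from rDNA and mitochondria tested there, 0 were above 0 and 1 was called lower, and their summed FPKM was 24049 to 25619 in controls and 19279 to 22485 in the cKO, without overlap. In Kdm2b hippocampi 4 of 8 microglial (58.1 to 68.0 and 76.6 to 96.1), 3 of 4 choroid plexus (5.89 to 17.7 and 8.45 to 61.7), 3 of 5 thalamic (50.3 to 61.7 and 69.3 to 81.0) and 4 of 8 neural progenitor markers (1102 to 1181 and 1134 to 1252) were called higher, and the summed FPKM of the microglial and thalamic lists did not overlap between groups. The thalamic list does not mark thalamus alone. It held Prox1, also on the hippocampal list, and Lef1, which the authors report as raised within cKO hippocampi. In neurospheres 7 of 9 astrocyte and oligodendrocyte markers were called lower, although their summed FPKM overlapped (2478 to 2493 and 2430 to 2493), and all 25 proliferation genes were called higher (810 to 829 and 1684 to 1789). The part of these in the ribosomal protein genes was not tested. The targeted genes checked the labels only weakly, since whole-gene values do not isolate the floxed exons: Kdm2b differed by -0.10, 0.06 and -0.13 (log2) in its 3 comparisons and Rnf2 by -0.16 in its own, none called.

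The most distinct member was Rps4l, the only 1 of 81 members tested in all 4 comparisons that was below 0 in each. Rps4l lies on chromosome 6 (chr6:148354656-148355598, plus strand, GRCm38), in a single exon that the cortical and Rnf2 tables annotate as a transcribed processed pseudogene. The gene of the matching name, Rps4x on the X chromosome, encodes a core protein of the small subunit. In neurospheres it was at 13.9 and 7.85 FPKM in controls and at 3.58 and 1.06 in the cKO. Both cKO libraries lay below both controls, and it fell by 1.90 on the log2 scale (SE 0.42, adjusted p = 0.0275), the only member called lower there. In Kdm2b hippocampi it was at 67.2, 65.0 and 63.3 in controls and at 42.6, 54.6 and 52.9 in the cKO. The groups did not overlap, and the log2 difference of -0.38 (SE 0.085, adjusted p = 0.0276) lay just inside the fold threshold, so it was not called. In cortices 22.9 and 23.9 stood against 17.9 and 18.3 (log2 difference -0.36, SE 0.072, adjusted p = 0.159), again without overlap. In Rnf2 hippocampi 38.1 and 32.1 overlapped with 32.2 and 36.2 (-0.03).

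No window of 150 bases of the Rps4l transcript was shared with a transcript of another gene, and in the cortical table it was read 475 and 480 times in controls and 331 and 322 times in the cKO. Rps4x itself differed by 0.07, 0.28, 0.00 and -0.07 in the 4 comparisons and was called in none. Leaving out any 1 library kept Rps4l called lower in neurospheres, at -1.33 to -2.48, and in Kdm2b hippocampi gave -0.27 to -0.45. The hippocampal and neurosphere controls are different libraries, but whether the difference between comparisons exceeds error was not tested.

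**Figure D4:**
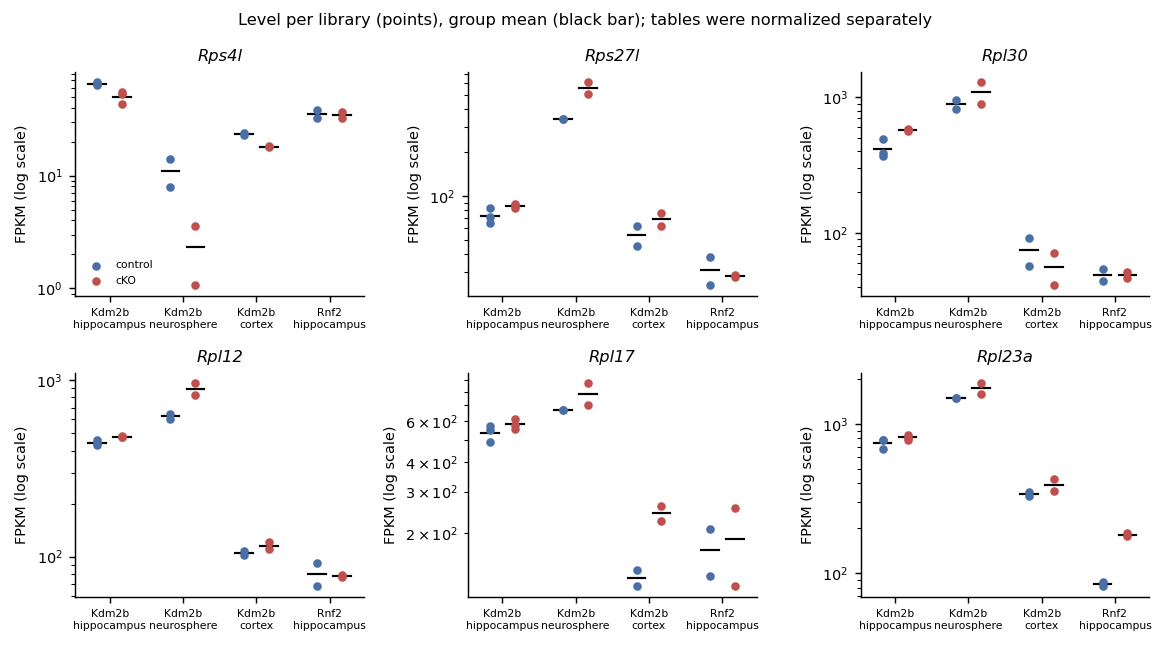
FPKM of 6 members in each library (points, log scale, controls blue, cKO red) with the group mean as a black bar, for each of the 4 comparisons on the x axis. Rps4l lies lower in the cKO in the 3 Kdm2b comparisons (for instance 13.9 and 7.85 against 3.58 and 1.06 in neurospheres), and Rpl23a lies higher in Rnf2 hippocampi (87.5 and 81.7 against 185 and 177).

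Rps27l, a paralog of Rps27 that p53 is known to induce, was the member with the largest rise in neurospheres, from 341.2 and 340.9 FPKM in controls to 508 and 611 in the cKO (log2 fold change 0.71, SE 0.14, adjusted p = 0.0179). The controls were nearly equal and both cKO libraries lay well above them. In Kdm2b hippocampi Rps27l was at 82.3, 65.5 and 71.8 in controls and 88.6, 82.4 and 86.3 in the cKO (0.23, SE 0.077, adjusted p = 0.103), and in cortices at 61.7 and 45.5 against 62.2 and 76.4 (0.37, adjusted p = 0.487). In each the cKO libraries lay above the controls, if only just, and neither passed the call. In Rnf2 hippocampi 38.0 and 24.2 overlapped with 27.5 and 28.7 (-0.11). No 150-base window of the Rps27l mRNA was shared with another gene. Cdkn1a, 1 of several p53 targets on a list of 27 regulators and targets, was called higher in the 3 Kdm2b comparisons (0.69, 0.58 and 0.64, with adjusted p of 0.0261, 0.1002 and 0.241) and was at 0.01 in Rnf2 hippocampi. The list as a whole had 1 called higher and 0 lower in Kdm2b hippocampi, 3 and 3 in neurospheres and 3 and 0 in cortices. Its medians there were 0.042, 0.027 and -0.002. Whether p53 has a part in the change of Rps27l was not tested.

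Of the core members called higher in neurospheres, Rpl12, a protein at the base of the stalk, was at 644 and 605 in controls and 828 and 966 in the cKO (0.52, SE 0.15, adjusted p = 0.0565). Rps2, a small subunit protein with many pseudogenes, was at 1001 and 937 against 1263 and 1441 (0.48, SE 0.16, adjusted p = 0.0900). Rpsa, also known as the laminin receptor, was at 591 and 637 against 813 and 837 (0.43, SE 0.13, adjusted p = 0.0704). In all of them both cKO libraries lay above both controls, and each call was lost when either control library was left out. That of Rpsa was also lost with the scaling that left out Mir6236 (0.37). Rpsa overlapped between groups in Kdm2b hippocampi (0.03), cortices (0.03) and Rnf2 hippocampi (0.02), while Rpl12 and Rps2 did not overlap in Kdm2b hippocampi (0.11 and 0.09) and cortices (0.13 and 0.26), with cKO above control and neither called.

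The stalk genes in neurospheres were at 1076 and 1060 against 1193 and 1271 for Rplp0, 2334 and 1648 against 1691 and 3202 for Rplp1, and 881 and 889 against 967 and 1212 for Rplp2 (0.20, 0.25 and 0.29, none called). Rplp1 overlapped and the other 2 did not. Rps27a, which encodes a fusion of ubiquitin with a small subunit protein, varied so much between replicates (79.9 and 181 in cortical controls, 168 and 44.2 in Rnf2 controls) that its differences of 0.42 and -0.45 there could not be told from the spread. It was at 0.12 in Kdm2b hippocampi and 0.33 in neurospheres, not called.

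The genes that make ribosomes were also examined in neurospheres, from lists written by gene name. Of 64 genes of ribosome biogenesis tested, 58 were above 0 and 17 were called higher and 0 lower (median 0.31). Nop58 and Fbl, components of the box C/D small nucleolar ribonucleoprotein, rose by 0.62 and 0.62 on the log2 scale, Dkc1, the pseudouridine synthase, by 0.59 and Bop1, a factor of large subunit maturation, by 0.66 (adjusted p of 0.0105, 0.0192, 0.00736 and 0.00585). Of 39 translation factors 9 were called higher and 0 lower (median 0.24), among them Eif5a (0.64), Eif4a1 (0.51) and Eif4ebp1, an inhibitor of cap-dependent translation (1.07). Ribosome biogenesis was called in 17 of 64 (26.6%) and translation factors in 9 of 39 (23.1%), against 11.4% of all genes and 4 of 81 (4.94%) for the ribosomal proteins. Without cKO replicate 2 the medians of the first 2 lists were 0.21 and 0.17. With libraries scaled to the same FPKM total, 10 and 3 of their genes were called higher and 0 lower, against 10.3% and 6.78% of all genes. With that scaling without Mir6236, 13 and 4 were called higher and 1 of each list lower, against 9.96% and 15.9%. The share of translation factors called higher was thus near or under the background with both scalings.

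In the other comparisons the shares called in these lists were near or under the background. Of biogenesis genes, 0 of 64 were called in Kdm2b hippocampi, 0 of 66 in cortices and 1 of 66 in Rnf2 hippocampi (Nhp2, 0.56) by limma. With the p threshold alone 1 was higher and 3 lower in Kdm2b hippocampi and 0 and 1 in cortices, where limma-voom on recovered reads also called 0. That threshold was passed by 23.0% and 12.8% of all genes in either direction. Of translation factors 1 of 39 was called each time, Eif4ebp1 in Kdm2b hippocampi (0.50) and cortices (0.69) and Eif3g in Rnf2 hippocampi (0.47). Mitochondrial ribosomal protein genes, which serve another ribosome, had medians of -0.029, 0.034, 0.095 and 0.070 over 67, 70, 77 and 77 genes, with 22, 39, 62 and 48 above 0. They were thus above 0 in most cases in cortices and Rnf2 hippocampi too, and not in Kdm2b hippocampi. Of the MYC family, which drives ribosome production in many cells, Mycn was called higher in neurospheres (from 1.07 to 4.14 FPKM, 1.31) and Myc and Mycl lower (-0.49 and -0.80).

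In Kdm2b hippocampi the only member called was Rpl30, a large subunit protein, at 371, 495 and 387 in controls and 587, 569 and 572 in the cKO (0.48, SE 0.099, adjusted p = 0.0214). The cKO libraries were even and lay above each control, of which replicate 2 was closest, and without control replicate 1 the difference was 0.40, just under the threshold. Its value comes from an entry shared with Gm12191, a pseudogene, and 57.4% of its mRNA bases are covered on the other strand by D730044K07Rik. In neurospheres Rpl30 overlapped (0.27), and in cortices 91.9 and 56.7 overlapped with 41.0 and 70.6 (-0.42, not called).

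In cortices the 3 members called, Rpl17, Rpl21 and Rps3a2, shared 40.0%, 10.9% and 60.5% of their 150-base windows with other transcripts. Rpl17, a large subunit protein near the exit tunnel, was at 119 and 140 in controls and 225 and 260 in the cKO (0.91, SE 0.13, adjusted p = 0.0979), with no overlap. It received 2025 and 2299 reads in controls and 3425 and 3764 in the cKO, while its 11 rows of named pseudogenes received 9389 and 7545 against 6445 and 5794, mostly through Rpl17-ps10, which had 5672 and 4407 against 2924 and 2159. With the gene and these rows summed the difference was 0.05. Rpl21, a large subunit protein, was at 21.9 and 22.8 against 43.9 and 35.6 (0.79, SE 0.12, adjusted p = 0.0979). With its rows of named pseudogenes summed it was at 0.55 and still called. That sum left out copies under other names, among them Gm10095, which shared 10.9% of its windows, the most of any gene. Rps3a2, annotated as a processed pseudogene and nearest to Rps3a1 by shared windows, was at 4.53 and 3.33 against 6.43 and 6.21 (0.58, SE 0.14, adjusted p = 0.202).

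In Rnf2 hippocampi the largest difference was that of Rpl23a, a large subunit protein at the mouth of the exit tunnel (chr11:78180932-78183584, minus strand, GRCm38). It was at 87.5 and 81.7 FPKM in controls and at 185 and 177 in the cKO, a log2 fold change of 1.09 (SE 0.10, adjusted p = 0.355). The groups were far apart and even within. As reads, 1109 and 1077 stood against 2594 and 2424, and the adjusted p was 0.0173 with limma-voom on these reads. Its rows of named pseudogenes held 469 and 377 reads in controls and 445 and 522 in the cKO, nearly all on Rpl23a-ps3 (chr14:34170655-34171122). Copies under other names were not counted, so whether reads moved between the gene and all its copies was not tested. With the gene and its rows of named pseudogenes summed the difference was 0.88 and still called. Of 150-base windows of the mRNA, 73.2% were shared with transcripts of other genes, 49.4% with Rpl23a-ps3. Tlcd1 covers 55.4% of its bases on the other strand and had 157 and 154 reads against 159 and 113. In the 3 Kdm2b comparisons Rpl23a differed by 0.13, 0.21 and 0.20, each with cKO libraries above controls and not called, and its pseudogene rows in cortices held 1082 and 1057 against 1151 and 1283 reads.

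**Figure D5:**
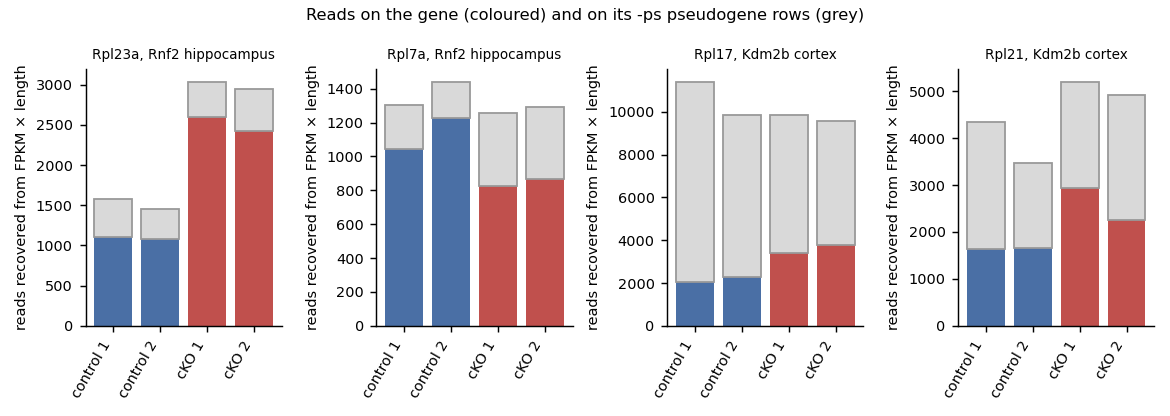
Reads (y axis, recovered from FPKM and length) on the gene (coloured, controls blue, cKO red) and on its rows of named pseudogenes (grey, stacked) in each library. For Rpl23a the coloured part grows from 1109 and 1077 to 2594 and 2424 with a grey part of 377 to 522, and for Rpl17 the grey part shrinks from 9389 and 7545 to 6445 and 5794 while the coloured part grows.

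The other members called higher in Rnf2 hippocampi were mostly of the large subunit. Rpl28 was at 58.0 and 52.3 against 89.3 and 83.4 (0.64, SE 0.11), Rpl36a at 36.1 and 33.7 against 52.8 and 56.4 (0.63), Rpl35 at 80.6 and 71.3 against 111 and 114 (0.57), Rpl11, which binds MDM2 when ribosome assembly is disturbed, at 56.6 and 54.2 against 86.1 and 76.3 (0.54), and Rpl27a at 67.2 and 64.3 against 88.0 and 98.5 (0.50). Rps28 of the small subunit was at 35.2 and 27.7 against 45.3 and 41.5 (0.46). In each of them both cKO libraries lay above both controls, but adjusted p values ranged from 0.498 to 0.679 in limma. In the Kdm2b comparisons these 6 differed by -0.06 to 0.37 and none was called. Other large subunit genes lay below 0 in the same libraries, with Rpl39 at -0.31, Rpl34 at -0.43 and Rpl7a, called lower, at -0.51. Rpl34 had 3589 and 2870 reads in controls and 1733 and 3705 in the cKO, so only cKO replicate 1 lay below the controls. Its rows of named pseudogenes held 97 and 88 reads against 1322 and 107. Whether reads moved between Rpl34 and its copies was not tested.

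Rpl7a, a large subunit protein, was at 39.1 and 44.4 in controls and 28.1 and 29.98 in the Rnf2 cKO (SE 0.12, adjusted p = 0.561). Its reads were 1043 and 1229 against 828 and 864, while its pseudogene rows had 263 and 213 against 428 and 425, of which Rpl7a-ps5 had 168 and 132 against 314 and 316. Summed, the difference was -0.20 and was not called. Rpl22l1, a paralog of Rpl22, was just under the fold threshold (0.39, adjusted p = 0.674) with 10.4 and 9.31 against 12.6 and 13.9, and in the Kdm2b comparisons it was at -0.01, 0.49 and 0.49 with no call.

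Across comparisons, 45 of 81 members tested in all 4 were above 0 in each, 27 in 3, 8 in 2 and 1, Rps4l, in none, and 67 were above 0 in the 3 Kdm2b comparisons. The comparisons use different libraries. By the distance of a member's 4 log2 fold changes from those of the median member (0.093, 0.21, 0.23 and 0.076), Rps7, Rps20 and Rpl9 were the most typical (distances 0.076, 0.092 and 0.10), and Rps4l (2.25), Rpl23a (1.01), Rpl30 (0.76) and Rpl17 (0.68) the least. Rpl6, Rpl7l1 and Rpl8, with Rpl12, Rpl23a, Rps2 and Rps27l, had cKO libraries above controls without overlap in all 3 Kdm2b comparisons. In the separate comparisons 14.9%, 32.1% and 22% of all genes did so. The share of all genes that did so in all 3 was not counted, so this list has no background. Rpl7l1, a factor of large subunit assembly related to Rpl7, was at 20.0, 20.2 and 19.0 against 20.4, 23.5 and 21.1 in hippocampi, 35.7 and 34.4 against 41.8 and 43.8 in neurospheres (0.28, adjusted p = 0.0529) and 26.6 and 26.8 against 26.9 and 27.4 in cortices.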

How the data were processed

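Expression was measured by poly(A) RNA-seq of P0 tissue and neurospheres. The authors deposited FPKM values. For hippocampi and neurospheres their methods name cutadapt, STAR (mm10) and Cufflinks 2.2.1, with 1 sequencing depth stated for the libraries, and the depth of each of these was not analysed here. The cortical and Rnf2 FPKM tables carry Ensembl gene lengths, and how they were made is not given in the sources used here. Their FPKM multiplied by length gave whole reads (100% of values within 0.05 of a whole number), with 14654894 to 21905224 reads a library, or read pairs. The submitters' notes name DESeq2 on counts, which FPKM do not give.

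Here log2(FPKM + 1) was fitted per table with limma 3.58.1 in R 4.3.3 (lmFit, eBayes with trend) over every gene averaging 0.5 FPKM or more, two-sided. A member took its own entry, or an entry that names several genes where it had no other (12 of 84 in hippocampi and in neurospheres), and the entry with the highest mean. Rules, members and lists were chosen with earlier results of these data known. Genes were named by a rule: in each comparison the 3 largest calls in each direction, the 5 highest and 3 lowest control levels, the stalk genes, Rpsa, Rps27a, Rpl23a and the paralogs. The other members called, Rps4x, Rps12, Rps21, Rpl39, Rpl34 and the members without overlap were added after their values were seen. Samples were grouped by their labels. Replicate numbers were not used to pair the samples in the main fit. Correlations of same-numbered deviations were 0.049, -0.10 and -0.086 in Kdm2b hippocampi, -0.28 in neurospheres, -0.053 in cortices and 0.16 in Rnf2 hippocampi. With 2 libraries a group, same-numbered and crossed correlations are equal in size and opposite in sign by construction, so they cannot settle pairing. The fit was tested on simulated data. Shared transcript windows were taken from GENCODE M21, and promoters from RefSeq (GRCm38.p6). Alternatives covered pseudocount, filter, scaling, thresholds, replicate block, shared entries, pseudogenes and each library left out.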

Additional observations from a re-analysis of the deposited data

Results flagged for a closer look

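Rps12 and Rps21 stood out because all cKO libraries lay above all controls in 1 Kdm2b comparison and below them in another, and whether these differences between comparisons exceed error was not tested. Rps12 was at 1650 and 1699 FPKM in neurosphere controls and at 2171 and 2373 in the cKO (0.44), while in cortices 146 and 158 stood against 119 and 116 (-0.36). Rps21 was higher in hippocampi, from 876, 738 and 786 to 954, 889.5 and 915 (0.20), and in cortices, from 269 and 162 to 309 and 280 (0.49), but lower in neurospheres, from 1163 and 1133 to 932 and 1121 (-0.17). None of these was called.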

How the results depend on the processing

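Leaving out each library in turn gave 0 to 1 members called higher, 0 to 1 lower and a median of 0.048 to 0.117 in Kdm2b hippocampi, 1 to 37 higher, 1 lower and 0.040 to 0.399 in neurospheres, 2 to 41 higher, 0 to 1 lower and 0.047 to 0.375 in cortices, and 6 to 20 higher, 0 to 8 lower and -0.066 to 0.239 in Rnf2 hippocampi, where the median turned without control replicate 2. A lone library left in a group was taken to vary like the others. With no fold threshold the counts were 13 higher and 1 lower in Kdm2b hippocampi, 2 lower in cortices and 14 higher in Rnf2 hippocampi. Over all genes 1537 of 13446 were then higher and 1553 lower in Kdm2b hippocampi. In cortices 801 of 15691 were lower, and in Rnf2 hippocampi 692 of 15764 were higher. With an adjusted p under 0.05 they were 1 higher in neurospheres, 0 higher in cortices, and 0 higher and 0 lower in Rnf2 hippocampi. Members with entries of their own gave 0 higher in Kdm2b hippocampi, since Rpl30 shares its entry. Scaling to the same FPKM total gave 1 lower in cortices. In neurospheres it moved the median of all genes to 0.094 and that of the members to 0.333, and 10.3% and 6.78% of all genes were called higher and lower. The same scaling without Mir6236, added after seeing the data, gave medians of -0.061 and 0.157 and calls of 9.96% and 15.9%. limma-voom on recovered reads gave 9 higher in cortices, a count not set against the share of all genes. Adding the reads of named pseudogenes gave 0 lower in Rnf2 hippocampi. The cause of these changes was not tested, except that fewer members or stricter thresholds lower a count by construction.

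With the replicate number as a block, 1 member was called higher in neurospheres (Rps27l), and with the numbers crossed, an alternative chosen after seeing the data, 7 were. In the other comparisons the block left the counts of calls within 1.5 times. Whether the replicate numbers pair samples was not settled here.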
